A study of Mus musculus with 12 samples.

Results

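The genes described here are the chemokines, the interleukins and their receptors that had a row in the expression tables of mouse ventral hippocampus. They were chosen by symbol alone: Ccl, Ccr, Cxcl, Cxcr or Ackr followed by a digit, or Il followed by a digit. This gave 51 of the 17564 genes, and the rule uses no measured value. The pattern also took Il1rapl1 and Il1rapl2, neuronal adhesion proteins named for their likeness to an interleukin receptor protein, and these were kept and are described apart. The animals were males of C57BL/6 background. Mice were WT or BDNF het-Met, that is, carrying in every cell 1 normal and 1 Met-coding copy (Val66Met knock-in) of BDNF, brain-derived neurotrophic factor. The treated animals drank corticosterone (CORT, a glucocorticoid and the chief stress hormone of mice) at 25 mg/l in 1% ethanol for 6 weeks from 2 months of age. Control animals of each genotype drank 1% ethanol alone (VEH), so ethanol was common to all 4 groups (VEH and CORT of either genotype). Each group had 3 libraries, each made from RNA pooled from 2 animals, 12 libraries in all. The tables hold fitted values and not values per library. Levels below are thus means over the libraries of the authors' fit, and each CORT effect has the standard error of that fit.

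Chemokines are small secreted proteins that draw cells along a gradient and act through G protein-coupled receptors, while atypical receptors (Ackr) bind chemokines and remove them without G protein signalling. Interleukins are secreted signals between immune and tissue cells, and their receptors are assembled from a specific subunit and a shared subunit such as Il6st (gp130). In brain, microglia and border macrophages make and sense many of these proteins, while neurons make Il34, the ligand that maintains microglia through Csf1r, and astrocytes and oligodendrocytes make Il33. Glucocorticoids are known for dampening inflammatory cytokine expression in many cell types.

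Averaged over both genotypes, the CORT effect with the smallest p-values among the 51 was on a pair of neighbouring genes, Ccl6 and Ccl9, which were lower under CORT in both genotypes. Both encode CC chemokines of rodents that are made by myeloid cells and act on Ccr1. In GRCm38 coordinates, Ccl6 lies on the minus strand at chr11:83587882-83593087 and Ccl9 on the same strand at chr11:83572919-83578636, with 9245 bases between them. Because the pair moved together, the 250 bases before each annotated start are shown, from RefSeq on GRCm38.p6, at chr11:83593088-83593337 for Ccl6 and chr11:83578637-83578886 for Ccl9 (minus strand, 5′ to 3′, ending at the base before the start). Capitals mark the runs of at least 10 bases that occur in both windows.
Ccl6: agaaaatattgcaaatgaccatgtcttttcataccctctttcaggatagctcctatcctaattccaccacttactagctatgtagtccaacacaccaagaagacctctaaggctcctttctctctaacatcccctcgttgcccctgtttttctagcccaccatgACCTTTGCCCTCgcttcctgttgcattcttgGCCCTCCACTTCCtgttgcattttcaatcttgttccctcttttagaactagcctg
Ccl9: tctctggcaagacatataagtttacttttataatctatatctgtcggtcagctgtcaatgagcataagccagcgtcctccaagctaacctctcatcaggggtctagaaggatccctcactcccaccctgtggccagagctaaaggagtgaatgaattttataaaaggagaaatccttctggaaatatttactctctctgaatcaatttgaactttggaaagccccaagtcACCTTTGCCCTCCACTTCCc
The longest shared run was GCCCTCCACTTCC, 13 bases long, which began 55 bases before the start of Ccl6 and 14 bases before that of Ccl9. Among the other 27 pairs that can be made from the 8 chemokine genes with such a window, the longest shared run was 6 to 10 bases. The first listed window of each gene was used, and none of these other pairs are neighbouring genes. Whether the shared run bears on the CORT effect was not tested. The Ccl9 window holds the letters TATAAA and the AP-1 motif TGANTCA, where N is any base, and the Ccl6 window holds neither.

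Most of the 51 genes were weakly expressed in this tissue. Their median level was 1.84 log2 CPM (log2 of counts scaled to library size), against 3.87 over all genes, and 12 of the 51 lay below 0 log2 CPM. Per kb of exon, the unit in which genes can be set beside each other, the highest level was that of Cxcl14 (5.15 log2 CPM per kb), a chemokine made by neurons in hippocampus. Il33 (4.19), Il34 (4.14), Il18 (3.79), Il6st (3.20), Cxcl12 (3.06) and Il4 (2.90) followed on the same scale, all above the median of 1.96 over all genes. Ackr1, listed at 4.54 log2 CPM per kb, cannot be placed in this order, because 25.7% of its exonic bases are also exon of Cadm3 on the same strand, a neuronal gene at 9.06 log2 CPM. Il4 likewise lies 1014 bases from Kif3a, a gene on the other strand at 7.43 log2 CPM, and read-through of that gene was not tested. At the lower end stood Ccr9 (−4.62 log2 CPM per kb), the receptor of Ccl25, and Ackr4 (−3.85). In the annotation used here (GENCODE M21) 138 protein-coding genes carry such a name, and 87 of them, Il1b, Il6, Il10, Ccl2, Ccl3, Ccl4, Ccl5, Cxcl10, Ccr1 and Ccr2 among them, had no row and were not analysed here.

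**Figure D1:**
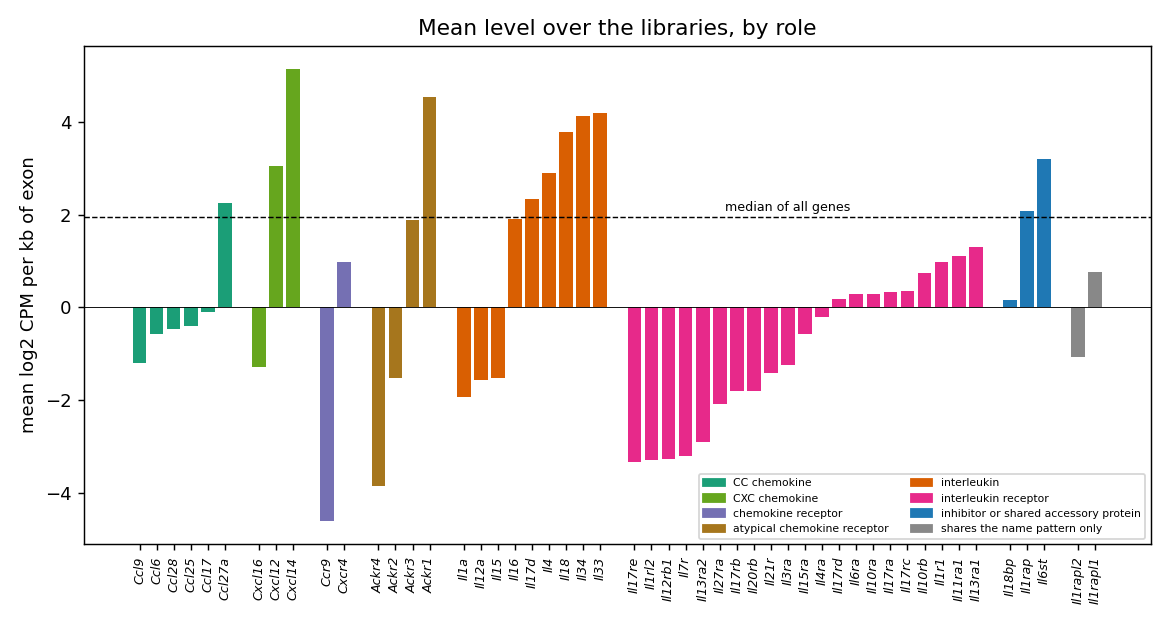
Mean level of 50 of the 51 genes over the libraries of the fit, in log2 CPM per kb of exon, coloured by role. The dashed line is the median of all genes (1.96). Cxcl14 stands highest at 5.15 and Ccr9 lowest at −4.62, and 20 of the 21 interleukin receptor subunits lie below 1.2.

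A gene was called, by the rule of the study's methods, where the uncorrected p of the limma fit was below 0.05 and the fold change above 1.3. In WT mice 2 of the 51 genes were called lower under CORT (Ccl6 and Ccl9), or 3.92%, where 0.672% of all genes were. Il12rb1 alone was called higher, 1.96% against 0.581% of all genes. In BDNF het-Met mice 5 were called lower (Ccl6, Ccl9, Il17d and Il33 among them), or 9.80%, against 2.52% of all genes, and 1 was called higher (Ccl28), against 0.723%. Standard errors were larger in WT, with a median over the 51 genes of 0.214, against 0.188 in BDNF het-Met mice. The counts of the genotypes are thus not at equal precision. Weakly expressed genes were called more often. Of the 7026 genes of up to 3.09 log2 CPM, which include 32 of the 51, 4.94% were called lower in BDNF het-Met mice. Of these 32 members, 4 were. In WT mice 1.48% of the 7026 genes were called lower, as were 2 of the 32 members. After Benjamini-Hochberg adjustment over all genes none of the 51 passed 0.05 in either genotype, where the smallest adjusted p of the limma fit was 0.999 (WT) and 0.161 (BDNF het-Met). At an unadjusted p below 0.05, without the fold minimum, 2 of the 51 passed lower and 1 higher in WT animals. In BDNF het-Met mice 6 passed lower and 1 higher. Of all 17564 genes, 276 passed lower and 396 higher in WT animals, and 1166 and 1151 in BDNF het-Met mice.

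Without regard to calls, 33 of the 51 genes (64.7%) had a log2 fold change below 0 in WT, where 51.1% of all genes did, and 37 (72.5%) in BDNF het-Met mice, against 51.8%. The median log2 fold change of the 51 was −0.06 for WT animals, against −0.11 for BDNF het-Met mice, beside medians over all genes of −0.00 and −0.01. Weakly expressed genes in general lay below 0 more often: 59.0% of the genes of up to 3.09 log2 CPM were below 0 in BDNF het-Met mice, as were 24 of the 32 members among them. The sign was the same in both genotypes for 31 of the 51 (60.8%), near the 62.5% of all genes.

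**Figure D2:**
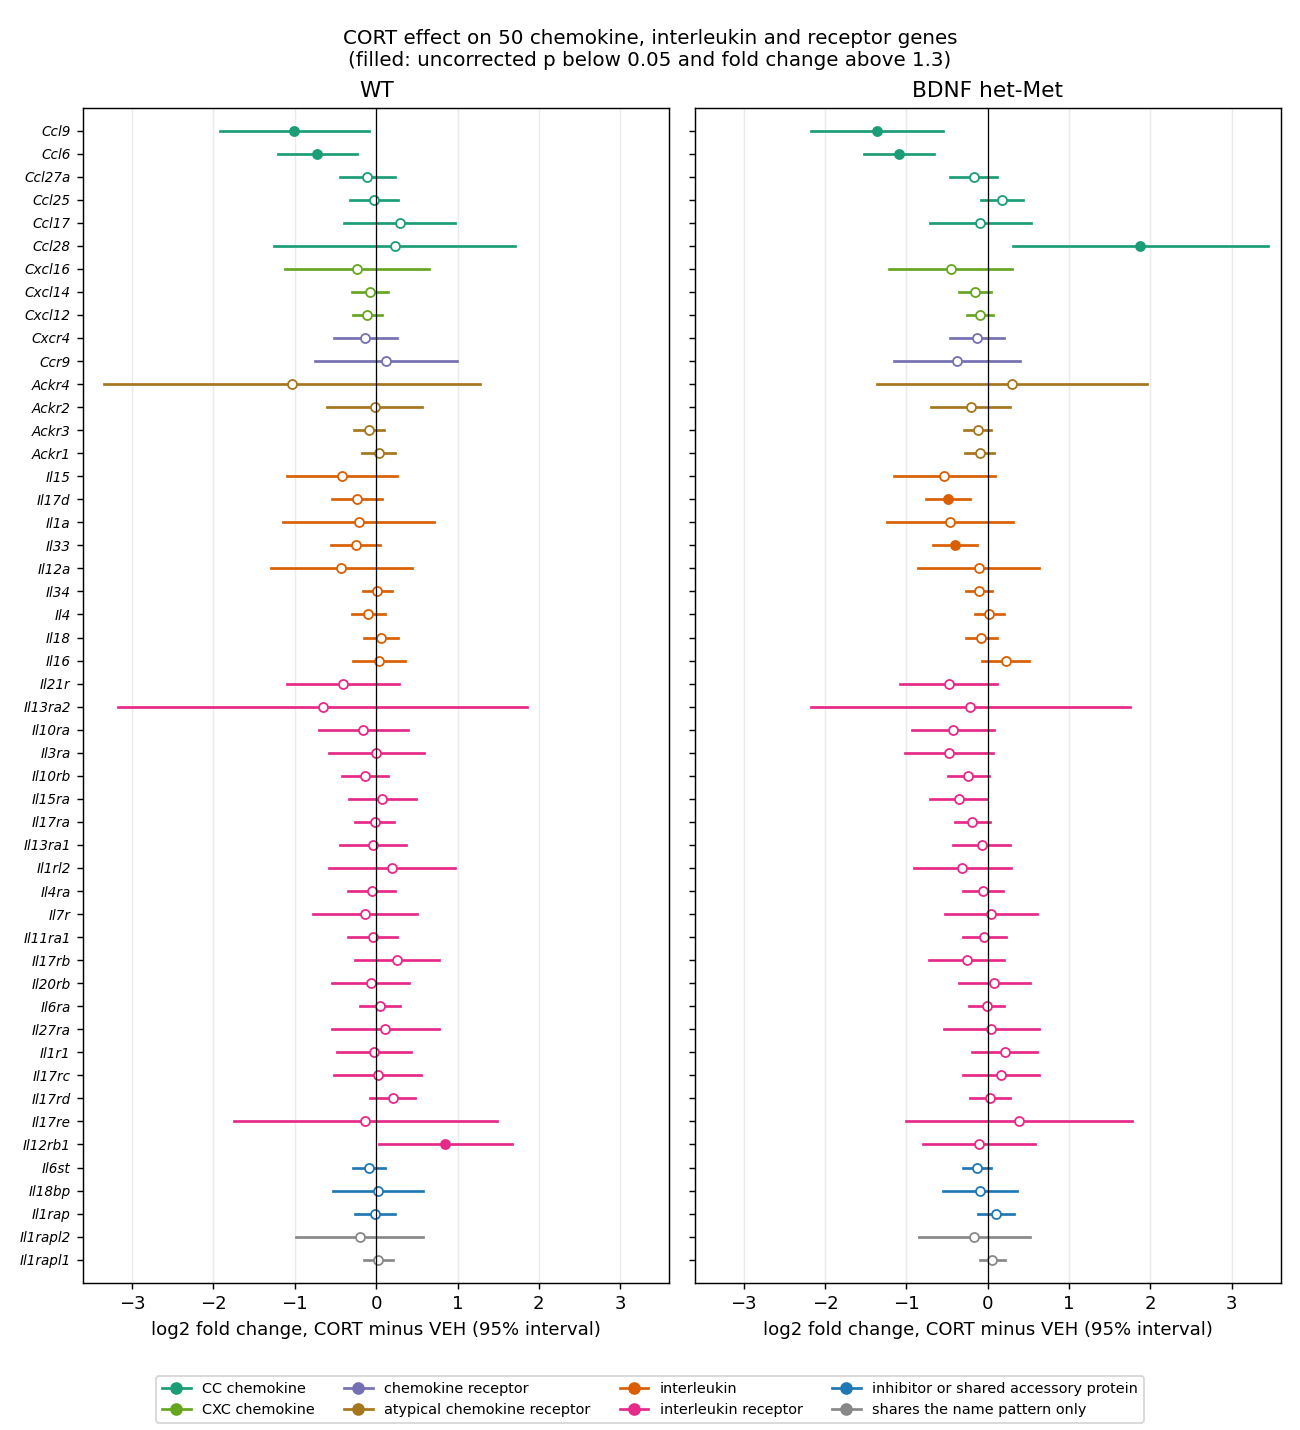
Log2 fold change (CORT minus VEH) of 50 of the 51 genes with its 95% interval in WT (left) and BDNF het-Met mice (right), grouped by role and coloured as in the key; filled points passed the call rule. Ccl9 and Ccl6 lie left of 0 with their whole interval in both genotypes, Ccl28 right of 0 in BDNF het-Met mice with an interval from 0.31 to 3.44, and most intervals span 0.

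To use both genotypes at once, their effects were averaged for each gene. Of the 51 genes, 36 (70.6%) had an averaged log2 fold change below 0, against 52.2% of all genes. At an unadjusted p below 0.05, 6 genes were lower (11.8%, against 6.18% of all genes), Ccl6, Ccl9, Il17d, Il33 and Il15 among them. None was higher, where 7.17% of all genes were. After adjustment over all genes 13 genes of the whole table passed 0.05 and none of them was among the 51. The interval of the averaged effect lay within 0.5 of 0 on the log2 scale for 29 of the 51 genes, so a change beyond 1.41-fold is outside the interval for these and not for the other 22. No gene of the 51 had a CORT effect that differed between genotypes at an unadjusted p below 0.05, where 2.41% of all genes did.

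Of the 6 CC chemokines, Ccl6 and Ccl9 fell in both genotypes. Ccl6, at a mean level of 0.27 log2 CPM, changed by −0.72 ± 0.22 (log2 fold change ± SE) in WT animals and by −1.09 ± 0.20 in BDNF het-Met mice (adjusted p = 0.161 in the latter), a level 1.65-fold and 2.13-fold lower under CORT. Its averaged change was −0.91 ± 0.15 (95% interval −1.23 to −0.58), the 19th of all 17564 genes in the order of p (adjusted p = 0.0697). Ccl9, at 0.41 log2 CPM, changed by −1.0045 ± 0.42 in WT animals and by −1.36 ± 0.37 in BDNF het-Met mice (adjusted p = 0.264), 2.01-fold and 2.56-fold lower. The averaged change of Ccl9 was −1.18 ± 0.28 (adjusted p = 0.197). The larger values in BDNF het-Met mice did not differ from those in WT beyond their error, with a difference of −0.37 (95% interval −1.02 to 0.28) for Ccl6 and −0.35 (−1.58 to 0.87) for Ccl9. In WT the call of Ccl9 was lost with the ordinary standard error, which does not borrow strength from other genes as the moderated one of limma does.

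Ccl28, a chemokine of mucosal epithelia that acts through Ccr10 and Ccr3, was the only one of the 51 called higher in BDNF het-Met mice. Its log2 fold change there was 1.88 ± 0.71 (adjusted p = 0.314), 3.67-fold higher under CORT, and in WT it was 0.23 ± 0.67. The genotypes differed by 1.65 ± 0.98 (95% interval −0.51 to 3.81), which did not pass the threshold. The standard error of Ccl28 was large for its level of 1.82 log2 CPM, where genes between 0.96 and 3.09 log2 CPM had a median SE of 0.136 in BDNF het-Met mice, and the call was lost with the ordinary standard error. Choroid plexus markers, which also had wide errors, had a median log2 fold change of −1.30 in WT animals, against 0.17 in BDNF het-Met mice (8 of 8 and 2 of 8 below 0), and their part in the Ccl28 values was not tested. The other CC chemokines did not pass: the averaged change was −0.14 ± 0.10 for Ccl27a, 0.07 ± 0.09 for Ccl25 and 0.10 ± 0.21 for Ccl17. The value of Ccl27a is uncertain, as its transcripts match those of Ccl27b over 425 bases at 99.3% identity.

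The 3 CXC chemokines had values below 0 in both genotypes, and none passed the test. Cxcl12, the stromal factor that signals through Cxcr4 and is cleared by Ackr3, had an averaged change of −0.10 ± 0.05, with a 95% interval of −0.22 to 0.02. That of Cxcl14 was −0.11 ± 0.07, with an interval of −0.26 to 0.03, and that of the weakly expressed Cxcl16 was −0.35 ± 0.26. The receptors of Cxcl12 gave like values, −0.13 ± 0.12 for Cxcr4 and −0.10 ± 0.06 for Ackr3.

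Ccr9, a receptor of lymphocytes that home to gut, had an averaged change of −0.13 ± 0.27, at a level of −1.26 log2 CPM. The atypical receptors Ackr1, Ackr2 and Ackr4 did not pass either: Ackr2, which clears inflammatory CC chemokines, gave −0.11 ± 0.17 and Ackr1 −0.03 ± 0.06. The fitted value of Ackr4 was −1.04 in WT with a standard error of 1.05, so that neither direction nor size can be read from it.

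Of the 9 interleukins, 8 had an averaged value below 0, with a median of −0.27, and 3 passed at an unadjusted p below 0.05. Il33, an alarmin of the interleukin-1 family, was the most abundant of them and was called lower in BDNF het-Met mice, by −0.40 ± 0.12 (adjusted p = 0.267), 1.32-fold. In WT its change was −0.25 ± 0.14, and the averaged change was −0.33 ± 0.09 (95% interval −0.53 to −0.12, adjusted p = 0.215). Il17d, a member of the interleukin-17 family, was called lower in BDNF het-Met mice, by −0.49 ± 0.12 (adjusted p = 0.254), 1.40-fold, with −0.24 ± 0.14 in WT and −0.36 ± 0.09 averaged (95% interval −0.56 to −0.16, adjusted p = 0.203). Il15, a growth factor of natural killer and memory T cells, had values of −0.42 ± 0.31 in WT animals and −0.53 ± 0.28 in BDNF het-Met mice, and only the average passed at the unadjusted threshold (−0.48 ± 0.21, adjusted p = 0.364). The difference between genotypes was within its error for Il33 (95% interval −0.56 to 0.25), Il17d (−0.66 to 0.16) and Il15 (−1.03 to 0.81).

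The other interleukins did not pass. Il34 gave an averaged value of −0.05 ± 0.05 and Il18, an inflammasome product, of −0.01 ± 0.06, both with narrow errors. Il4 gave −0.04 ± 0.06. Il16, a secreted ligand of Cd4 that also has a neuronal form, was the only interleukin with a positive average, 0.13 ± 0.10, and 15.3% of its exonic bases are exon of Stard5 on the other strand. Il1a (−0.34 ± 0.27) and Il12a (−0.27 ± 0.26) were below 0 log2 CPM, where the errors are wide.

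**Figure D3:**
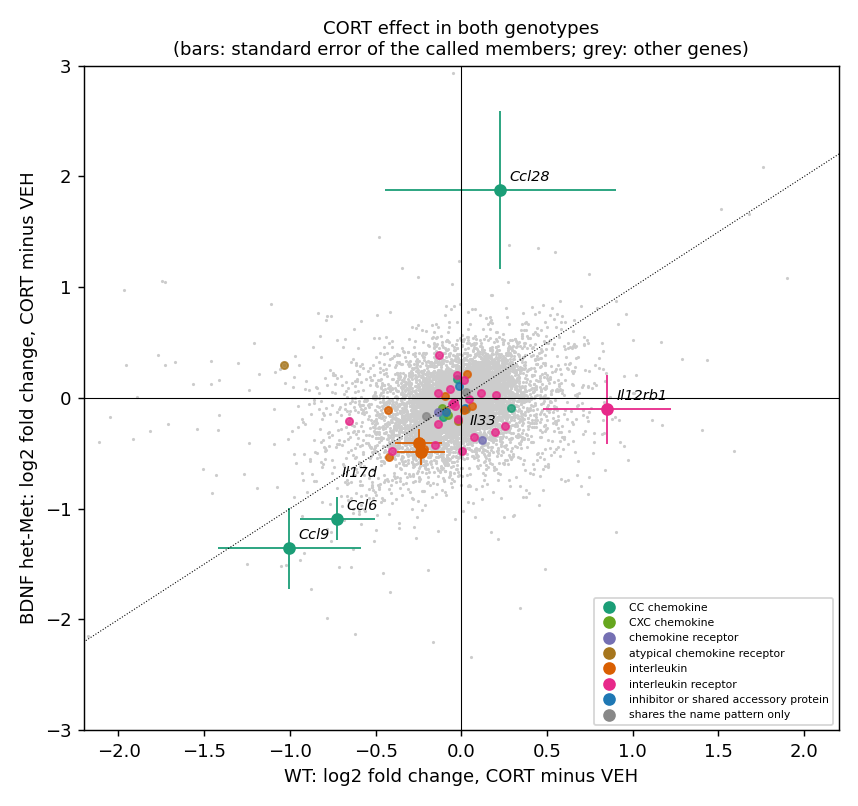
Log2 fold change (CORT minus VEH) in WT against that in BDNF het-Met mice for 50 of the 51 genes (coloured by role) over the other genes of the tables (grey); the bars on the 6 called genes shown are standard errors and the dotted line marks equal change. Ccl6 and Ccl9 lie in the lower left quadrant, Ccl28 is raised in BDNF het-Met mice and Il12rb1 in WT, and no difference between genotypes passed the test.

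Of the 21 interleukin receptor subunits, 12 were below 0 and 9 above in WT animals, 14 and 7 in BDNF het-Met mice, and none passed the test for the averaged effect. Il12rb1, the subunit shared by the receptors of interleukin-12 and interleukin-23, was called higher in WT, by 0.85 ± 0.37 (adjusted p = 0.999), 1.80-fold, and gave −0.10 ± 0.31 in BDNF het-Met mice. Its difference between genotypes, −0.95 ± 0.48 (95% interval −2.02 to 0.11), had the smallest p of the 51 and did not pass, and the call in WT was lost with the ordinary standard error. Its level was −1.23 log2 CPM, and Mast3, at 8.57 log2 CPM, lies 3394 bases away on the other strand. Il15ra, which presents Il15 to neighbouring cells, gave −0.36 ± 0.16 in BDNF het-Met mice, past the unadjusted threshold (adjusted p = 0.373) as a 1.28-fold change under the fold minimum, and 0.07 ± 0.19 in WT.

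The receptor subunits with the lowest averaged values, none of which passed, were Il21r −0.44 ± 0.21, Il13ra2 −0.43 ± 0.72, Il10ra −0.29 ± 0.17, Il3ra −0.24 ± 0.18 and Il10rb −0.19 ± 0.09, which shares exonic bases with Gm21970. The subunits for interleukin-4 and interleukin-13 stayed near 0, with −0.06 ± 0.09 for Il4ra and −0.06 ± 0.12 for Il13ra1. Il6ra, the specific subunit for interleukin-6, gave 0.01 ± 0.07, and Il1r1, the signalling receptor of interleukin-1, gave 0.09 ± 0.14. The 5 measured subunits of the interleukin-17 family, Il17ra, Il17rb, Il17rc, Il17rd and Il17re, had averages from −0.10 to 0.13 and standard errors from 0.07 to 0.48. Il11ra1 gave −0.04 ± 0.09, with a transcript that matches Il11ra2 over 1299 bases at 99.0% identity. The remaining subunits, Il7r, Il1rl2, Il20rb and Il27ra, had averages between −0.06 and 0.08.

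The shared signalling subunit Il6st, at 3.20 log2 CPM per kb, gave an averaged value of −0.11 ± 0.06. Il1rap, the accessory protein for the receptors of interleukin-1 and Il33, gave 0.05 ± 0.07, and Il18bp, the soluble inhibitor of Il18, −0.04 ± 0.16. Il1rl1, the specific receptor of Il33, had no row here and was not analysed. Il1rapl1 (0.04 ± 0.05) and Il1rapl2 (−0.18 ± 0.24) did not pass.

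Genes of the same pathways with other names were read from 2 lists. Of 29 measured cytokine and chemokine genes outside the name pattern, 23 had an averaged value below 0 (median −0.08, against −0.00 over all genes, of which 52.2% were below 0). At an unadjusted p below 0.05, 7 of the 29 passed lower and 1 higher, where 6.18% and 7.17% of all genes did. The CORT effect differed between genotypes at an unadjusted p below 0.05 for Cntfr, Crlf2 and Mif, against 2.41% of all genes. Among the 7 was Cx3cr1, the microglial receptor of the neuronal chemokine Cx3cl1, with −0.27 ± 0.09 (adjusted p = 0.263), and Csf1r, the receptor of Il34, with −0.23 ± 0.10 (adjusted p = 0.356). The averaged change was largest for Cd74, the invariant chain of MHC class II, with −1.20 ± 0.43 (adjusted p = 0.282), and the gene that passed higher was Lifr, with 0.13 ± 0.04 (adjusted p = 0.271). Of 38 measured genes that carry signals inside the cell, 28 had an averaged value below 0 (median −0.05). At the same threshold 7 of the 38 passed lower (Stat3, Stat6, Irak2, Gnai2, Dock2, Nlrp3 and Pycard) and 1 higher (Jak1), to be read against the same 6.18% and 7.17% of all genes. Socs1, Socs4 and Gnai2 differed between genotypes at an unadjusted p below 0.05, with Gnai2 at −0.06 ± 0.06 in WT animals and −0.23 ± 0.05 in BDNF het-Met mice. Nlrp3 and Pycard, which form the inflammasome that activates interleukin-1 and Il18, gave −0.57 ± 0.16 (adjusted p = 0.216) and −0.44 ± 0.18 (adjusted p = 0.331). Casp1, of the same list, gave −0.22 ± 0.23 and did not pass. None of the genes named in these lists passed 0.05 after adjustment over all genes.

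Markers of cell types were read beside these values. All 12 microglial markers had values below 0 in both genotypes, with medians of −0.19 (WT) and −0.43 (BDNF het-Met), and 7 of them passed lower for the averaged effect at an unadjusted p below 0.05. The fitted values of Ccl6 and Ccl9 lay below those of all 12 markers in both genotypes. For Ccl6 these were −0.72 against a lowest marker of −0.34 in WT, and −1.09 against −0.78 in BDNF het-Met mice. The lowest marker value lay within the interval of Ccl6 in WT (−1.21 to −0.24) and in BDNF het-Met mice (−1.52 to −0.66). It also lay within that of Ccl9 (−1.92 to −0.09 and −2.17 to −0.55). Within each genotype, neither gene was thus set apart from the lowest marker beyond its error. For the averaged effect the lowest marker, Trem2, gave −0.561 ± 0.221. That value lay just above the averaged intervals of Ccl6 (−1.232 to −0.582) and Ccl9 (−1.793 to −0.568). The marker has an error of its own, and the difference from it was not tested. In bulk tissue fewer cells of a type and less RNA per cell cannot be told apart, and the part of microglia in these results was not tested. The markers of astrocytes, which make Il33, had medians of −0.04 (WT) and −0.19 (BDNF het-Met), with 5 and 6 of 8 below 0. Values ran from −0.52 (Aqp4) to 0.25 (Aldh1l1) in WT, and from −0.79 to 0.19 in BDNF het-Met mice for the same genes. Aqp4 passed 0.05 after adjustment for the averaged effect (adjusted p = 0.0431). Oligodendrocyte markers had medians of −0.07 and −0.32, with 6 and 7 of 8 below 0, while Il33 gave −0.25 and −0.40.

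Border macrophage markers had medians of 0.14 (WT) and −0.15 (BDNF het-Met) over the 7 of 8 that were measured. Endothelial markers had medians of −0.07 and −0.04, and those of meningeal and perivascular fibroblasts −0.20 and −0.03, in the same order. All 5 blood markers had positive values, with medians of 0.58 and 0.64. Of the lymphocyte markers 3 of 12 had a row (Trac, Igkc and Ighm), with a median of −0.06 in WT. Ighm gave −0.81 ± 0.24 in WT animals and −0.94 ± 0.20 in BDNF het-Met mice, Trac −0.06 ± 0.29 and −0.57 ± 0.24, and Igkc 0.34 ± 0.96 and −1.90 ± 0.81, while the T cell genes Cd3d, Cd3e and Cd3g and all 5 granulocyte markers had none here. Their part in the values of the 51 genes was not tested. All 10 neuronal markers of hippocampus, the labelled tissue, had a row, with medians of 0.05 and 0.09.

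**Figure D4:**
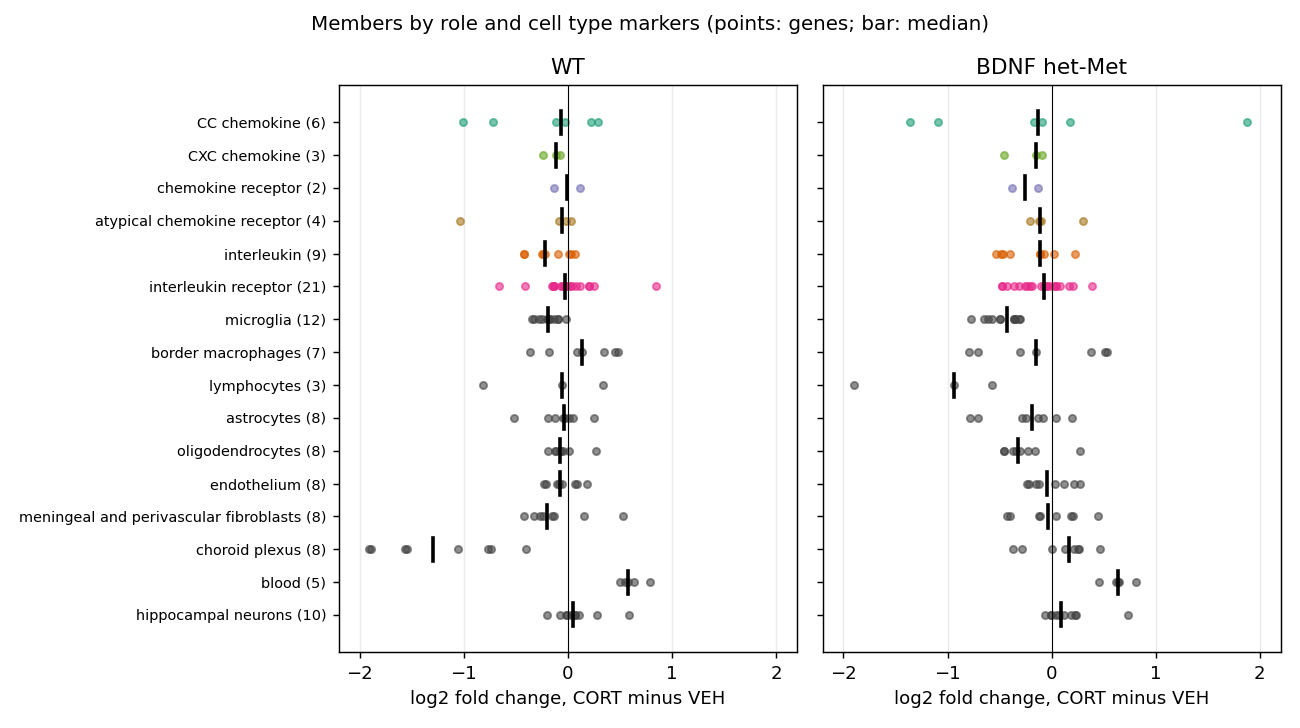
Log2 fold change (CORT minus VEH) in WT (left) and BDNF het-Met mice (right) for 45 genes of 6 of the roles (coloured) and for the marker genes of each cell type (grey), with the number of genes in brackets and the median as a black bar. All 12 microglial markers lie left of 0 in both genotypes, and the 5 blood markers lie right of 0. The points of Ccl6 and Ccl9 lie further left than any microglial marker, though in each genotype the intervals of both genes include the lowest marker value.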

How the data were processed

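RNA of male ventral hippocampus was sequenced from one end (75 bp, stranded libraries), and 35 to 40 M reads were planned for each library. The authors aligned reads with STAR to GRCm38 (mm10) with Ensembl annotation, counted genes by featureCounts and fitted a limma-voom model. Not given in the sources used here are versions, the filter on weak genes, whether counting used strand and how multiply mapped reads were treated. The deposited values used here are, per gene and genotype, log2 values (mean log2 CPM over all libraries, log2 fold change and standard error), p-values (uncorrected and Benjamini-Hochberg adjusted) and scores (moderated t and joint F). These are the authors' own comparison columns, which this report is about, and they hold no value per library, so depth per library is unknown. The p-values measure the spread between these pooled libraries.

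The sign was turned so that positive means higher under CORT, which was checked on Fkbp5, a glucocorticoid target (0.21 in WT, 0.43 in BDNF het-Met). Standard errors printed here are the moderated ones, the log2 fold change divided by t. The p equalled the tail of t at 10.91 degrees of freedom. The residual degrees of freedom were 7, where 12 libraries in 4 groups leave 8. A fit with fewer libraries or with a further term would leave fewer, and the sources used here name neither. Standard errors were larger in WT than in BDNF het-Met mice, with medians over all genes of 0.102 and 0.090 (for Snap25, 0.056 and 0.050). Whether the fit left out a WT library was not tested. Standard errors of the averaged effect and of the difference take both genotypes' estimates as independent, which a further term could change, and this was not tested. The averaged effect is the mean of both log2 fold changes and the genotype difference is BDNF het-Met minus WT. Each was tested two-sided at 10.91 degrees of freedom with Benjamini-Hochberg adjustment over all 17564 genes (Python 3.11.15, scipy 1.17.1). Tests on simulated data came first. They drew the errors of both genotypes as independent, so they could not show a dependence between them. Gene coordinates and exon lengths came from GENCODE M21, and near-identical transcripts from blastn 2.17.0 (at least 75 bases at 98% identity). By this, 18 members share exonic bases with another gene and 7 have such a match.

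The members, gene lists and marker lists were chosen with earlier results of these data known. Genes named with values were those called in a genotype, the 5 of smallest p for the average, the 3 for the difference, the 5 most expressed, the extremes of each role and those with near-identical copies. Other members were named to complete a role, and 1 member is in the counts but not reported here by name. Alternatives were other fold and p thresholds, adjusted p, the ordinary standard error, a filter at 0 log2 CPM, centring by expression (5 bins) and narrower membership.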

Additional observations from a re-analysis of the deposited data

How the results depend on the processing

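The counts of called genes depended mainly on the threshold. Of the alternatives run, only centring alters the log2 fold change of a gene, so the others could not reverse its direction. With centring, the members below 0 went from 33 to 32 in WT and from 37 to 36 in BDNF het-Met mice. Not every member thus kept its sign, while the values of named genes tested again did. The number of genes called in WT went from 3 to 1 at an uncorrected p below 0.01, to 0 with adjusted p and to 1 with the ordinary standard error. In BDNF het-Met mice it went from 6 to 3 with a fold minimum of 1.5 and to 0 with adjusted p, and for the averaged effect from 6 to 0 with adjusted p. Fewer genes pass a stricter threshold by construction. Of the 69 values of named genes tested again, 5 lost their call with the ordinary standard error (among them Ccl9 and Il12rb1 in WT, Ccl28 in BDNF het-Met mice and Il15 averaged). With centring, which removes the median shift of genes of like expression, 2 genes, Il15 among them, lost the call for the averaged effect, while Ccl28 (higher), Cxcl12 and Il6st (lower) gained it at the unadjusted threshold.

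No paired analysis was possible because the tables hold fitted values and none per library. For the same reason leaving out each replicate was not run, and whether 1 library decides a value, Ccl28 above all, is unknown. The depth of a library is unknown, and genes below 0 log2 CPM had wide errors.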

Other observations

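Of the 51 genes, 42 had a RefSeq promoter window of 250 bases before the start. Motifs were searched as exact letters on both strands, and overlaps between motifs were allowed. The glucocorticoid receptor half-site AGAACA, a part of the full motif, was found in 6 of the 42 (14.3%), beside 13.2% of 12050 genes with a window. The AP-1 motif TGANTCA was found in 7 (16.7%, beside 5.5%), Ccl9 and Il15ra among them, the TATA letters TATAAA in 10 (23.8%, beside 8.2%) and the NF-kappaB motif GGAATTTCC in 2, Il16 and Il1rl2 (4.8%, beside 0.3%). The PU.1 motif GAGGAAGT was found in none, beside 2.6% of all genes. These shares are descriptions of letters and were not tested.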
